A study of Homo sapiens with 6 samples.

Results

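Glycolysis and the transport of glucose and lactate were followed through 32 genes: 2 glucose transporters, the enzymes from hexokinase to lactate dehydrogenase, 2 monocarboxylate transporters, and the pyruvate dehydrogenase subunits with their kinases. Their rows were taken by gene symbol, without use of their values. The genes themselves were chosen with earlier results of these data known. The platform annotation gave a row for 29 of the 32, each with 1 row, out of 21448 rows tested, of which 17709 had a gene symbol. PFKFB4, SLC16A1 and SLC16A3 were not matched by symbol. RNA came from MSTO cells, the human mesothelioma line MSTO-211H grown in culture, of which 3 cultures were labelled as untreated (control) and 3 as given an inhibitor of miR-503 (anti-miR-503), all called biological replicates in the labels. Cells were collected 48 h after treatment, and 100 ng of total RNA per culture was put on 1 Clariom S array, which reads a biotin label in 1 colour. What the controls received is not settled, since the labels name them untreated but also mention a DMSO vehicle, and the methods mention a negative control as well. All cultures are of 1 cell line and carry no engineered allele.

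Glycolysis splits glucose into pyruvate in the cytosol. Glucose enters through GLUT carriers of the SLC2A family, hexokinases trap it as glucose 6-phosphate, phosphofructokinase commits it to breakdown, and the later enzymes return ATP and NADH. Lactate dehydrogenase turns pyruvate into lactate, which leaves through SLC16A carriers, whereas pyruvate dehydrogenase sends it to the mitochondria unless a pyruvate dehydrogenase kinase (PDK) switches that enzyme off. Tumour cells often run this pathway fast even with oxygen present, and many of its genes are known targets of the hypoxia-inducible factor HIF-1, of MYC, or of both.

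The inhibited microRNA is shown with 2 relatives of the miR-16 family, because their seeds are nearly the same. The sequences are RefSeq mature microRNAs on GRCh38.p14, written 5′ to 3′ with the seed, bases 2 to 8, in capitals. miR-503-5p (chrX:134546371-134546393, minus strand) and miR-424-5p (chrX:134546680-134546701, minus strand) are neighbours, and miR-16-5p is encoded at chr3:160404754-160404775 (plus strand) and chr13:50049027-50049048 (minus strand).
hsa-miR-503-5p: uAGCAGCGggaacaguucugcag
hsa-miR-424-5p: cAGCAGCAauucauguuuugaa
hsa-miR-16-5p: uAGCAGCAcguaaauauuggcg
miR-424-5p and miR-16-5p share their seed, and the seed of miR-503-5p differs from it in its last base. The microRNAs themselves were not measured on these arrays as analysed here.

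Promoters are shown for 3 textbook HIF-1 targets, namely HK2, which rose past the 2-fold rule described further on, and LDHA and PGK1, which did not. Each run is the 250 bases before a RefSeq transcription start on GRCh38.p14, all on the plus strand. Capitals mark matches to ACGTG or GCGTG on either strand, the core of the hypoxia response element, so that the reverse complements CACGT and CACGC are capitals too. Overlapping matches were merged into 1 site, and CACGTG, which reads ACGTG on each strand, is also the E-box bound by MYC. HK2 and LDHA have 2 annotated starts each. The HK2 windows are chr2:74833877-74834126 and chr2:74834920-74835169. The LDHA windows are chr11:18394313-18394562 and chr11:18396101-18396350, and the PGK1 window is chrX:78103998-78104247.
HK2, first start: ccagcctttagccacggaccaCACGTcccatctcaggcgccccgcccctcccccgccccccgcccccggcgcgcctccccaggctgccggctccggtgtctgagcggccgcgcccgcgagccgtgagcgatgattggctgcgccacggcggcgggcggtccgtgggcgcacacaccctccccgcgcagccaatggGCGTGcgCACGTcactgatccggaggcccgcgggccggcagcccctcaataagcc
HK2, second start: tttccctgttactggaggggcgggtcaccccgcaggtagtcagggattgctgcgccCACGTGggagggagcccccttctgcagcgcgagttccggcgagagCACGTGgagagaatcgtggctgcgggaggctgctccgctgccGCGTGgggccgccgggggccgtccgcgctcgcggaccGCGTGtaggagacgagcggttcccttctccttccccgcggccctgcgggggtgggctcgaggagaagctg
LDHA, first start: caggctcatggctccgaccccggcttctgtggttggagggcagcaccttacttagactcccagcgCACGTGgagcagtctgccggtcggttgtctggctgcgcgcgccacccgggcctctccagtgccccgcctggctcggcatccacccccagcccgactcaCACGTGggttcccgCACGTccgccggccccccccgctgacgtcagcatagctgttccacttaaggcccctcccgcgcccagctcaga
LDHA, second start: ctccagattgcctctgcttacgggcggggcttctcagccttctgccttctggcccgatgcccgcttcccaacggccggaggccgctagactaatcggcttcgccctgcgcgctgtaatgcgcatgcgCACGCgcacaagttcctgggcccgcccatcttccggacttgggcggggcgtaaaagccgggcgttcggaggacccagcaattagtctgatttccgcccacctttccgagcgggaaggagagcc
PGK1: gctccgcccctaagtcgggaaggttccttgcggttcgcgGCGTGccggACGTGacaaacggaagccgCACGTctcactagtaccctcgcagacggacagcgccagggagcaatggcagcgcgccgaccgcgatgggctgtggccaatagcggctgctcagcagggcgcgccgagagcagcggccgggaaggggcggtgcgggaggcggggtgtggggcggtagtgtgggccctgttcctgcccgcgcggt
The HK2 windows held 3 and 4 sites, the LDHA windows 3 and 1, and the PGK1 window 3. Over the 27 measured genes with a promoter entry, 28 of 53 windows (52.8%) held a site, against 15172 of 35116 windows (43.2%) of all genes. Counted by gene, with a site in any window, this was 22 of 27 (81.5%) against 12945 of 27305 (47.4%), and genes with several starts have more windows to match in. SLC2A3 and PFKFB2 had no entry. A match of 5 letters is a description of the sequence and not a bound site.

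Values below are the deposited log2 signals (RMA), on which 1 unit is a 2-fold difference. Background was set on each array at the 95th percentile of 612 negative control rows (7.44 to 8.09), which 40.3% to 43.6% of all rows exceeded. Signals of different genes come from different probes and were not compared as levels. Array medians lay between 6.56 and 6.63. Among mesothelial and mesothelioma markers 6 of 13 were above background on all 6 arrays (MSLN, CALB2, KRT7, KRT8, KRT18 and BNC1) and 6 on none, WT1, KRT5 and PDPN among them, while 0 of 7 leukocyte markers were above background on any array and 7 of 8 fibroblast and endothelial markers on none. Over all rows anti-miR-503 replicate 1 correlated most closely with control 3 (r = 0.991, the highest of all pairs) and less with anti-miR-503 replicates 2 (0.980) and 3 (0.977), which correlated with each other at 0.989. It thus lay closer to every control (0.984 with control 1 and 0.987 with control 2) than to its own group, against its label. Control 3 also lay apart from its group, at 0.980 with control 1 and 0.982 with control 2. Those 2 controls correlated with each other at 0.988. The counts and the genes called are given with and without anti-miR-503 replicate 1. The array to omit was picked from these same values, so results without it are a description and not independent evidence. Differences are anti-miR-503 minus control by the array labels. For HK2, SLC2A3 and the SLC16A1 row, the study's own gene list, drawn from these arrays, has the opposite direction, so the 3 are not independent evidence and the direction here rests on the labels.

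Across the pathway, 2 of the 29 measured genes rose 2-fold or more at an unadjusted p no greater than 0.05 (6.9%, against 0.872% of all rows): the glucose transporter SLC2A3 and hexokinase 2 (HK2). The genes were chosen with earlier results of these data known, so the 2 shares are a description and not a test of the pathway. The rows compared are also unlike, since 11362 of all 21448 rows were above background on no array. None of the 29 fell by that rule, which 0.914% of all rows met. With adjustment over all rows by limma, 0 of 29 passed, as did 0% of all rows. Unadjusted, limma gave a p no greater than 0.05 for the same 2 of 29 genes and for 1377 of 21448 rows, about the same share. The methods' t-test with adjustment also gave 0 of 29. Differences lay within 0.5 of 0 on the log2 scale for 24 of 29 genes, about the same share as for all rows (17823 of 21448), and their median was 0.11, against 0.01 for all rows. Without anti-miR-503 replicate 1, 3 of 29 passed the 2-fold rule upward (2.42% of all rows), the third being PDK4, which was below background on every array, and 0 passed downward (3.81%). In that comparison SLC2A3 and HK2 also passed the adjusted threshold, which 0.359% of rows did in the upward direction. Since the array left out was picked for its likeness to the controls, passing there is not independent support for either gene. All 6 arrays showed 21 of the 29 genes above background, and 6 genes were above it on none (PFKFB2, ALDOC, ENO2, PDK2, PDK3 and PDK4).

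**Figure D1:**
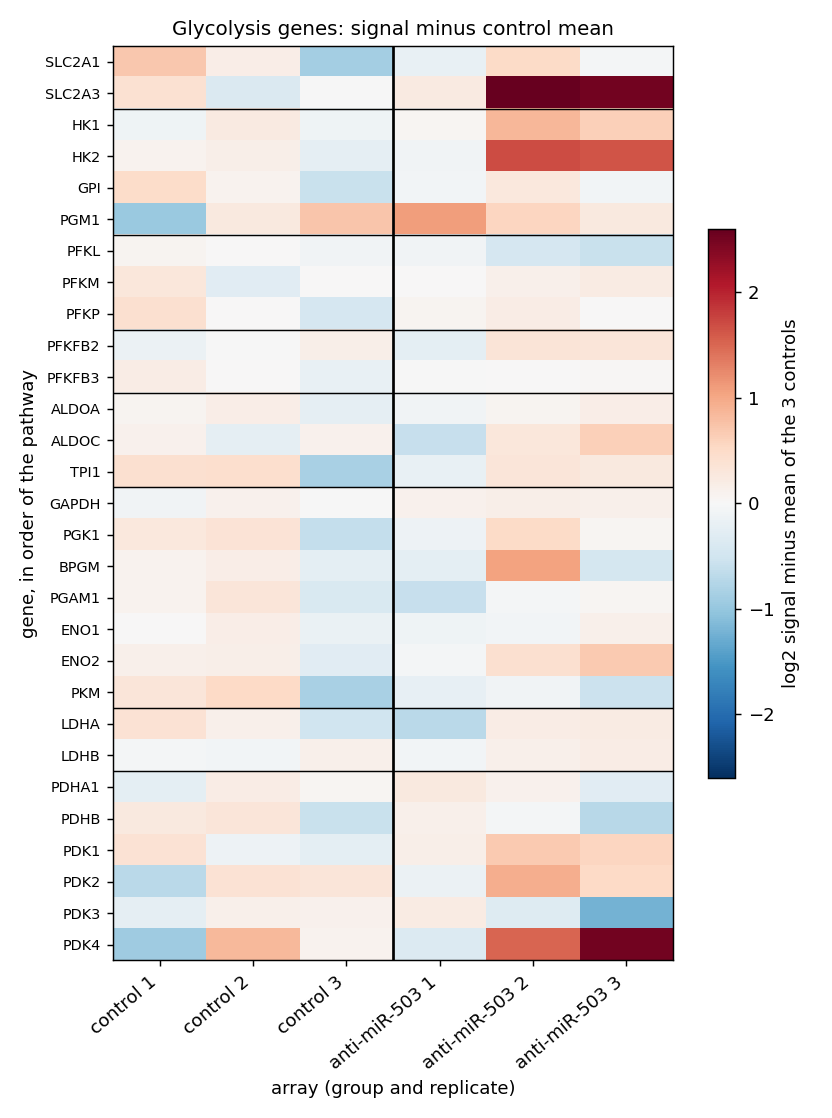
Heat map of the 29 measured genes (vertical axis, in the order of the pathway) on the 6 arrays (horizontal axis), coloured by log2 signal minus the mean of the 3 controls. SLC2A3 and HK2 stand out on anti-miR-503 replicates 2 and 3 and not on replicate 1, and control 3 is pale to blue for most glycolytic enzymes; 6 genes shown, PDK4 among them, were below background on all arrays.

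The largest difference among the 29 genes was in the signal of the glucose transporter SLC2A3. SLC2A3 encodes GLUT3, a high-affinity glucose carrier. Its signal was 11.64, 10.86 and 11.22 on control arrays 1 to 3 and 11.46, 13.84 and 13.74 on anti-miR-503 arrays 1 to 3. Anti-miR-503 replicates 2 and 3 lay above every control, whereas replicate 1 lay inside the control range, so the groups overlapped. The mean was 11.24 ± 0.39 (SD, n = 3) in control and 13.02 ± 1.34 (SD, n = 3) in anti-miR-503 cells, a log2 difference of 1.78 ± 0.59 (SE; limma, unadjusted p = 0.0151, adjusted p = 0.756). When anti-miR-503 replicate 1 was left out, the difference was 2.55 ± 0.29 (adjusted p = 0.0188). The unadjusted p rose above 0.05 without control replicate 2 (log2 difference 1.59), anti-miR-503 replicate 2 (1.37) or anti-miR-503 replicate 3 (1.41).

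SLC2A14, the near-identical neighbour of SLC2A3 that encodes GLUT14, showed a like pattern over the arrays. Its signal was 12.42, 12.03 and 12.43 in control and 12.43, 14.63 and 14.59 in anti-miR-503 cells, a log2 difference of 1.59 ± 0.54 (SE; limma, adjusted p = 0.756), and 2.32 ± 0.25 (adjusted p = 0.0183) without replicate 1 of anti-miR-503. Probes of the 2 carriers can share signal, so their values are not separate measurements. SLC2A14 was the only 1 of 21 other glucose and lactate carriers and partners to rise past the 2-fold rule (0.872% of all rows), and 0 of the 21 fell. Without anti-miR-503 replicate 1, SLC2A12, which was below background on all controls, passed it too. SLC2A1 encodes GLUT1, the carrier of most proliferating cells. Its signal was 12.52, 11.98 and 10.93 in control and 11.62, 12.31 and 11.76 in anti-miR-503 cells. All anti-miR-503 values lay between the lowest and the highest control, and the log2 difference was 0.08 ± 0.40 (SE). In bulk RNA, fewer cells expressing a gene and less RNA per cell cannot be told apart.

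Hexokinases phosphorylate the glucose that has entered. HK2 encodes the inducible, mitochondria-bound hexokinase common in tumours. Its signal was 8.52, 8.57 and 8.19 in control and 8.32, 10.12 and 10.06 in anti-miR-503 cells. As for SLC2A3, replicates 2 and 3 lay above all controls and replicate 1 lay among them. The log2 difference was 1.08 ± 0.46 (SE; limma, unadjusted p = 0.044, adjusted p = 0.756), and without anti-miR-503 replicate 1 it was 1.67 ± 0.25 (adjusted p = 0.0354). The call by the 2-fold rule was lost on leaving out any array other than anti-miR-503 replicate 1, with log2 differences of 1.12, 1.15 and 0.96 without controls 1 to 3, and 0.77 and 0.80 without anti-miR-503 replicates 2 and 3.

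HK1, the housekeeping hexokinase, gave 10.28, 10.63 and 10.28 in control and 10.45, 11.26 and 11.01 in anti-miR-503 cells. The order of the anti-miR-503 arrays was that of HK2, and the groups overlapped only through replicate 1. The log2 difference of 0.51 ± 0.27 (SE; limma, adjusted p = 0.763) passed neither threshold, and it was 0.74 ± 0.26 without replicate 1. GPI, which isomerizes glucose 6-phosphate to fructose 6-phosphate, differed by 0.04 ± 0.30. PGM1, which links glucose 6-phosphate to glycogen, was above background on 1 control array and 3 anti-miR-503 arrays and differed by 0.63 ± 0.43, with control 1 (6.42) far below the other arrays (7.63 to 8.46).

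**Figure D2:**
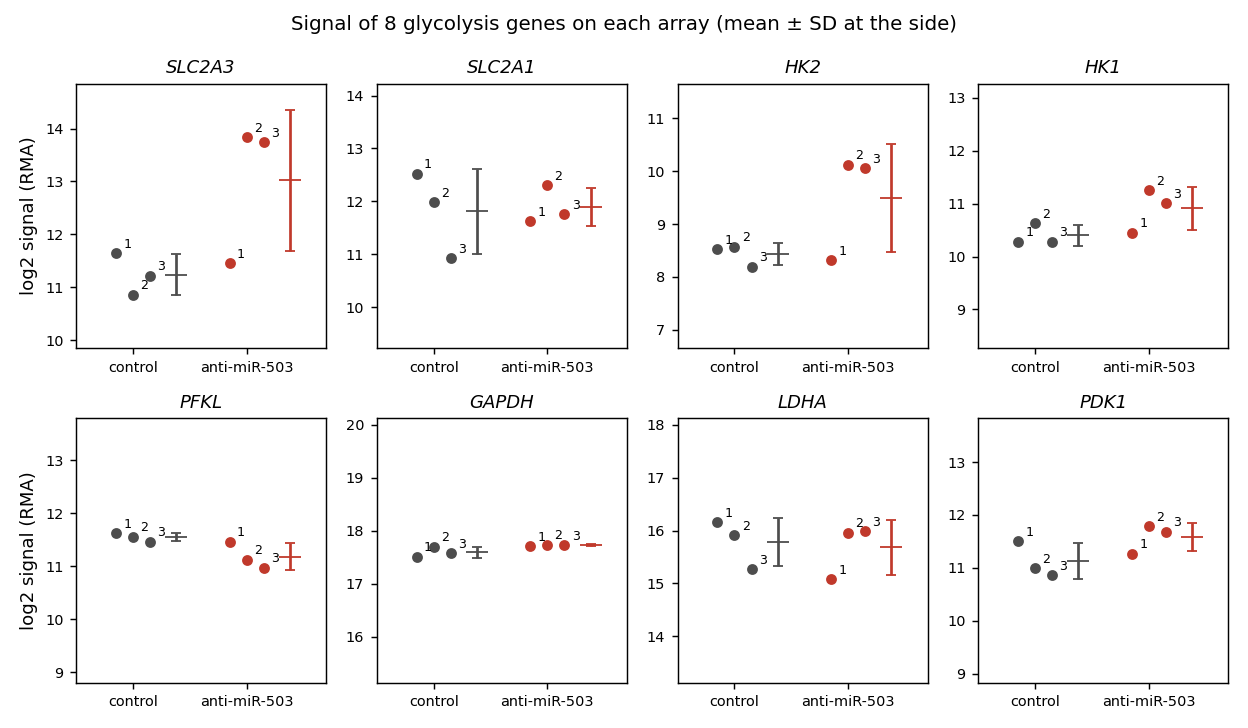
Log2 signal of 8 genes on each array, numbered by replicate, with the group mean ± SD (n = 3) at the side of each group; every panel spans the same number of log2 units. Anti-miR-503 replicates 2 and 3 lie above all controls for SLC2A3, HK2, HK1 and PDK1, replicate 1 does not, and the PFKL and GAPDH groups do not overlap although their differences are small.

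Phosphofructokinase-1 makes fructose 1,6-bisphosphate and exists as liver (PFKL), muscle (PFKM) and platelet (PFKP) subunits. PFKL was 11.62, 11.56 and 11.46 in control and 11.46, 11.12 and 10.97 in anti-miR-503 cells. It was the only 1 of 29 genes whose anti-miR-503 values all lay below the controls (4.60% of all rows did), with control 3 and anti-miR-503 replicate 1 equal as rounded. The log2 difference was -0.36 ± 0.22 (SE; limma, adjusted p = 0.777) and did not pass a threshold. PFKM and PFKP differed by 0.12 ± 0.23 and 0.09 ± 0.26. Of the bifunctional enzymes that set fructose 2,6-bisphosphate, the activator of phosphofructokinase-1, PFKFB3 lay between 7.25 and 7.65 on all arrays with a difference of 0.00 ± 0.21, above background on 1 anti-miR-503 array only. PFKFB2 was below background throughout, at 4.06, 4.19 and 4.35 in control and 3.94, 4.54 and 4.52 in anti-miR-503 cells.

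The aldolase and triose phosphate step gave differences no larger than the spread between replicates. TPI1, triose phosphate isomerase, had the largest in its group, with 14.56, 14.58 and 13.29 in control and 13.94, 14.46 and 14.41 in anti-miR-503 cells. Control 3 was the lowest array and the other 5 lay within the range of 13.94 to 14.58. The log2 difference was 0.13 ± 0.37 (SE; limma, adjusted p = 0.962), and without control 3 it was -0.30. ALDOA, the main aldolase of most tissues, differed by 0.05 ± 0.22, and ALDOC, the brain form, was below background on all arrays (5.50 to 6.73).

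Among the enzymes of the ATP-yielding steps, GAPDH was the only gene of the 29 whose anti-miR-503 values all lay above the controls (5.92% of all rows did). GAPDH, glyceraldehyde 3-phosphate dehydrogenase, is also the reference gene of the study's q-PCR. Its signal was 17.51, 17.70 and 17.58 in control and 17.71, 17.74 and 17.73 in anti-miR-503 cells, close to the highest signal on any array (18.02 to 18.08). The difference of 0.13 ± 0.20 (SE; limma, adjusted p = 0.907) was small, and it was 0.06 after a second quantile normalization and 0.17 after centring on the array medians. How far signals this close to the top of the range can still rise was not tested.

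PGK1, the first enzyme of glycolysis to make ATP, was 13.88, 13.95 and 12.98 in control and 13.47, 14.09 and 13.66 in anti-miR-503 cells, and differed by 0.14 ± 0.32. Its groups overlapped, as those of HK2 did. Its promoter, printed above, held as many sites as the first HK2 window, and a link between sites and signal was not tested. ENO1, the common enolase, differed by -0.02 ± 0.21. PGAM1, phosphoglycerate mutase, which can share probe signal with its retrogene copy PGAM4, differed by -0.20 ± 0.28. PKM, pyruvate kinase, which makes pyruvate and ATP, was 16.04, 16.23 and 14.88 in control and 15.51, 15.63 and 15.16 in anti-miR-503 cells, a difference of -0.28 ± 0.36. Control 3 was again the lowest array, and without it the difference was -0.70. BPGM, which makes the haemoglobin regulator 2,3-bisphosphoglycerate, was high on anti-miR-503 replicate 2 only (10.02, against 8.53 to 9.16 elsewhere). ENO2, the neuronal enolase, was below background at 5.74, 5.74 and 5.30 in control and 5.54, 6.01 and 6.27 in anti-miR-503 cells.

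Lactate dehydrogenase did not differ beyond the spread between replicates. LDHA, the subunit that favours lactate formation, was 16.16, 15.91 and 15.27 in control and 15.08, 15.96 and 15.99 in anti-miR-503 cells. Control 3 and anti-miR-503 replicate 1 were the 2 low arrays, and the other 4 lay between 15.91 and 16.16. The log2 difference was -0.10 ± 0.34 (SE; limma, adjusted p = 0.969), and without anti-miR-503 replicate 1 it was 0.20. LDHB, the heart-type subunit, lay between 16.64 and 16.89 on all arrays and differed by 0.08 ± 0.21.

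The lactate exporter SLC16A1 (MCT1) has no symbol in the platform annotation. A row that the study's gene sheet pairs with it, which was therefore chosen on these arrays and is not counted among the 29, gave 9.18, 7.77 and 8.30 in control and 7.80, 7.08 and 6.96 in anti-miR-503 cells. The platform marks this row as unmapped, so its link to SLC16A1 rests on that sheet. Replicates 2 and 3 lay below all controls and replicate 1 just above the lowest, and 2 controls and 1 anti-miR-503 array were above background. The log2 difference was -1.14 ± 0.39 (SE; limma, unadjusted p = 0.0178, adjusted p = 0.756) and passed the 2-fold rule. It was -1.40 (adjusted p = 0.16 by limma) without anti-miR-503 replicate 1. The call was lost without control replicate 1 (log2 difference -0.76), anti-miR-503 replicate 2 (-1.04) or anti-miR-503 replicate 3 (-0.98). BSG, the chaperone that carries these exporters to the membrane, differed by -0.20 ± 0.31.

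At the entry of pyruvate into mitochondria no member passed a threshold. The subunits PDHA1 and PDHB of pyruvate dehydrogenase differed by 0.02 ± 0.24 and -0.21 ± 0.33. PDK1, the kinase of that enzyme best known as a HIF-1 target, was 11.50, 10.99 and 10.86 in control and 11.27, 11.79 and 11.68 in anti-miR-503 cells. Replicates 2 and 3 lay above all controls, and the log2 difference was 0.46 ± 0.26 (SE; limma, adjusted p = 0.771). PDK4, a kinase induced by fasting in many tissues, was below background on all arrays, at 3.69, 5.46 and 4.71 in control and 4.28, 6.13 and 7.13 in anti-miR-503 cells, so its differences have no measured fold. PDK2 and PDK3 were also below background, at 5.01 to 6.65 and 6.28 to 7.72.

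**Figure D3:**
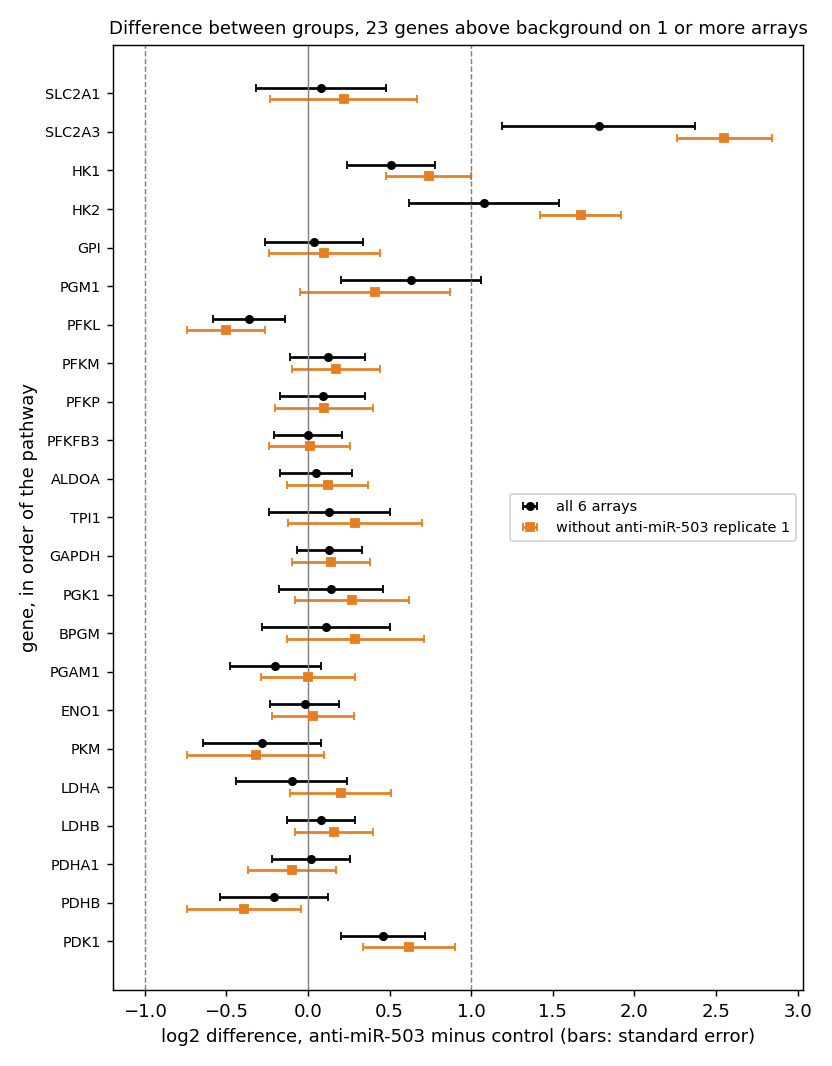
Log2 difference (anti-miR-503 minus control, horizontal axis, bars are standard errors) of the 23 genes that were above background on 1 or more arrays, with all 6 arrays (black circles) and without anti-miR-503 replicate 1 (orange squares). Dashed lines mark a 2-fold difference, which SLC2A3 (1.78 and 2.55) and HK2 (1.08 and 1.67) alone pass.

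The members varied among the controls as well. Control 3 was the lowest of the 6 arrays for 13 of 29 genes (44.8%), against 17.1% of all rows, and SLC2A1, GPI, PFKP, TPI1, PGK1 and PKM were among them. The median deviation of the 29 genes was -0.30 for control 3 from the other controls, 0.14 and 0.22 for controls 1 and 2 from the other controls, and -0.09, 0.28 and 0.17 for anti-miR-503 replicates 1 to 3 from all controls, where the medians over all rows lay between -0.01 and 0.01. Control 3 and anti-miR-503 replicate 1, the arrays with the highest correlation over all rows, were thus the 2 arrays with the lowest medians over these genes. The part of any batch in this was not tested, since the labels give none. Leaving out anti-miR-503 replicate 1, 11 of 29 genes lay above all controls on both remaining arrays (16.0% of all rows) and 2 below them (15.9%). Of these, PFKFB2, ALDOC, ENO2, PDK2 and PDK4 on the upper side and PDK3 on the lower were below background on all arrays.

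Isozymes of 1 step were also compared with each other on the same array, so that what an array adds to both cancels. Of 8 pairs, 4 had both genes above background. SLC2A3 against SLC2A1, relative to the control mean of that difference, was -0.31, -0.55 and 0.86 in control and 0.41, 2.11 and 2.56 in anti-miR-503 cells, a change of 1.69 (exact two-sided permutation test, p = 0.2, adjusted over the 8 pairs p = 0.8). Anti-miR-503 replicates 2 and 3 were above every control and replicate 1 was not. HK2 against HK1 changed by 0.56 (exact permutation p = 0.4, adjusted p = 0.914), PFKP against PFKM by -0.03 (exact permutation p = 0.8, adjusted p = 0.914) and LDHA against LDHB by -0.18 (exact permutation p = 0.6, adjusted p = 0.914). With 3 arrays against 3 such a test cannot go below 0.1, so no pair could pass. In the other 4 pairs the partner that was below background carried no measured level.

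**Figure D4:**
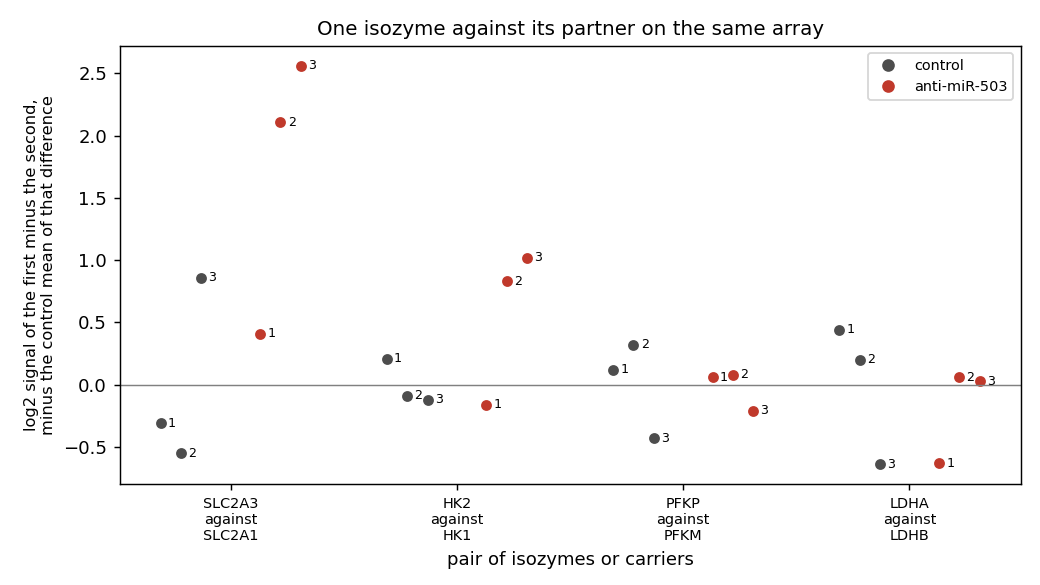
Log2 signal of 1 isozyme minus that of its partner on the same array (vertical axis, relative to the control mean of that difference) for the 4 pairs above background, with arrays numbered by replicate. For SLC2A3 against SLC2A1 the controls span -0.55 to 0.86 and anti-miR-503 replicates 2 and 3 reach 2.11 and 2.56, whereas LDHA against LDHB spans -0.64 to 0.44 in control and contains every anti-miR-503 value.

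In the pathways around glycolysis, genes past the 2-fold rule, which 0.872% of all rows passed upward and 0.914% downward, were 0 of 13 other glycolysis isozymes and fructose bisphosphatases, 0 of 9 genes of mitochondrial pyruvate entry, 0 of 7 of the pentose phosphate pathway, 0 of 11 of glycogen metabolism, 0 of 14 of the citric acid cycle and 0 of 12 regulators of glycolytic genes, in either direction. In lists this short, 0 calls is near that background, and 10 of the 13 isozymes were above background on no array. Without anti-miR-503 replicate 1 (2.42% upward and 3.81% downward of all rows), PDP1, a phosphatase of pyruvate dehydrogenase, rose (1.19), and PGLS of the pentose phosphate pathway (-1.62) and the glycogen synthase GYS1 (-1.23) fell, with adjusted p of 0.16, 0.0608 and 0.148 by limma. Among hypoxia targets outside glycolysis 3 of 18 rose (16.7%, against 0.872% of all rows) and 0 fell, with a median log2 difference of 0.56 in the list. This list too was chosen with earlier results of these data known, so its share is a description. Of its genes 14 of 18 were above background on all arrays, against 8035 of 21448 rows. Without anti-miR-503 replicate 1, 7 of 18 rose and 1 fell (STC2, -1.01), with a median of 0.89. The 3 that rose with all arrays in the fit were ADM, which encodes the vasodilator adrenomedullin (1.39 ± 0.37, SE, with 1 of 3 controls and all 3 anti-miR-503 arrays above background), NDRG1, a stress-responsive gene (1.40 ± 0.38), and PLOD2, which hydroxylates collagen lysines (1.34 ± 0.47), each with an adjusted p of 0.756 by limma. NDRG1 was 8.92, 10.16 and 9.67 in control and 10.40, 11.45 and 11.09 in anti-miR-503 cells, without overlap. Over all rows 5.92% lay higher without overlap. In contrast to the glycolytic calls, NDRG1 and ADM were above all controls on anti-miR-503 replicate 1 as well. PLOD2 was not, since its 12.34 on that array lay inside the control range of 11.40 to 12.77, as with SLC2A3 and HK2. HIF1A, the oxygen-regulated subunit of HIF-1 whose control is largely at the protein, differed by 0.09 ± 0.28, and MYC by -0.03 ± 0.30.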

How the data were processed

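RNA of 3 control and 3 anti-miR-503 cultures was measured on 1 Clariom S array each. The authors processed the arrays with the Transcriptome Analysis Console by RMA and deposited 1 log2 signal per row and array, already background-corrected, normalized between arrays and summarized over probes. The RMA variant and the annotation build of the array were not given in the sources used here, so no genome positions are given for rows. The deposited log2 values were used as they are. Array controls (2903 of 24351 rows) were left out, and names came from the platform annotation, where no symbol was changed by RefSeq. For 20 symbols with several rows the row with the highest mean was used, and none of them was a member. Since arrays have no depth of reading, precision is limited by the number of arrays.

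In R 4.3.3, limma 3.58.1 (lmFit, then eBayes) was fitted to all 21448 rows, with Benjamini-Hochberg adjustment, and genes were called at an adjusted p under 0.05 or at a 2-fold change with an unadjusted p no greater than 0.05. The fit was tested on simulated data. Members and gene lists were chosen with earlier results of these data known. Genes named with every array value are those called or without overlap, the largest difference of each step, GAPDH, and up to 4 called genes of each other list. Further genes were named after their values had been seen. Correlations of same-numbered arrays' deviations from their group means were -0.10, 0.21 and 0.00, so replicate numbers were not taken to pair the arrays. Alternatives were another variance prior, the methods' t-test, filters on rows, other normalizations, array weights, other thresholds, a replicate block and the omission of each array. The q-PCR, immunohistochemistry and small RNA data of the study were not used here. The figures were made in matplotlib 3.10.9.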

Additional observations from a re-analysis of the deposited data

How the results depend on the processing

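The 2 calls upward became 0 with the methods' t-test and with a p limit of 0.01, 1 without rows below the median level, and 0 to 3 on leaving out 1 array. With the replicate number as a block, PDK4 was added (log2 difference 1.22, unadjusted p = 0.0233 by limma, below background), and no other member's call changed. Genes past the adjusted threshold ranged from 0 to 2 on leaving out 1 array, and the median difference from -0.02 to 0.20. The 2 genes without overlap became 1 after a second quantile normalization or centring, and 2 to 13 on leaving out 1 array. The sign of ENO1 turned with centring (0.01) and that of PDHA1 with array weights (-0.01). On leaving out 1 array the sign also turned for SLC2A1 (-0.36 to 0.44), GPI (-0.24 to 0.28), PFKM (-0.04 to 0.27), PFKP (-0.13 to 0.30), ALDOA (-0.07 to 0.14), ALDOC (-0.15 to 0.46), TPI1 (-0.30 to 0.34), PGK1 (-0.18 to 0.31), BPGM (-0.35 to 0.40), ENO1 (-0.11 to 0.06), LDHA (-0.35 to 0.20), PDHA1 (-0.11 to 0.18) and PDHB (-0.50 to 0.04), and for the pairs PFKP against PFKM (-0.24 to 0.13), PFKFB3 against PFKFB2 (-0.32 to 0.04), ALDOC against ALDOA (-0.15 to 0.34), LDHA against LDHB (-0.50 to 0.04) and PDK1 against PDK2 (-0.26 to 0.57). None of these passed a threshold with all arrays, and the cause of each turn and of each lost call was not tested. SLC2A3 (1.37 to 2.55) and HK2 (0.77 to 1.67) kept their sign in every alternative run. Replicate 1 of the anti-miR-503 group decides whether SLC2A3 and HK2 pass the adjusted threshold. With 3 arrays a group, differences as small as those of most members lie within the spread between replicates.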

Other observations

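Around the pyruvate and glycogen branches, 3 genes reached an unadjusted p of 0.05 or less by limma without a 2-fold change. They were 2 of 9 genes of mitochondrial pyruvate entry and 1 of 11 of glycogen metabolism, against 1377 of all 21448 rows at that p. All 3 were named after their values had been seen. DLAT, the acetyltransferase subunit of pyruvate dehydrogenase, was 10.29, 10.14 and 10.16 in control and 9.76, 9.65 and 9.35 in anti-miR-503 cells, without overlap, a log2 difference of -0.61 ± 0.22 (SE; limma, adjusted p = 0.756). It was below all controls on anti-miR-503 replicate 1 as well, and 4.60% of all rows lay lower without overlap. PDP1, the phosphatase that reactivates pyruvate dehydrogenase, differed by 0.88 ± 0.36, and GYS1, the glycogen synthase outside liver, by -0.93 ± 0.36, both with overlap and an adjusted p of 0.756 by limma. Without anti-miR-503 replicate 1 they passed the 2-fold rule, as given above, and DLAT did not (-0.70).

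TXNIP, a glucose-responsive inhibitor of glucose uptake, was 9.31, 12.07 and 12.85 in control and 13.28, 13.32 and 12.87 in anti-miR-503 cells, and ARRDC4, its glucose-responsive relative, was 5.93, 8.36 and 8.74 in control and 9.08, 8.17 and 8.21 in anti-miR-503 cells. Control 1 was the lowest array for both. Their log2 differences of 1.74 ± 0.77 and 0.81 ± 0.66 (SE; limma, adjusted p of 0.756 and 0.817) passed no threshold. For TXNIP the other 5 arrays lay between 12.07 and 13.32. Its groups did not overlap, though only narrowly (12.87 in anti-miR-503 against 12.85 in control), and 5.92% of all rows lay higher without overlap.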
